A study of Homo sapiens with 6 samples.

Results

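The 8 chemokine genes described here were CXCL1, CXCL2, CXCL3, CXCL5, CXCL8, CXCL16, CCL20 and CX3CL1, chosen by name as chemokines that epithelial cells can make. Their symbols were matched to the Ensembl identifiers of the 58302 genes counted, and 7 of the 8 passed the filter on low counts, as did 15075 genes in all. The data were RNA-seq read counts from 6 libraries labelled MDA-MB-231, a human breast cancer line that the study classes as mesenchymal/basal-like, of which 3 expressed a control shRNA and 3 expressed Smyca shRNA #1. Smyca is a nuclear long non-coding RNA, and the comparison asked which transcripts depend on it. The cells of both groups expressed an shRNA, and no other agent is named for either group. Only 1 of the Smyca shRNAs of the study was sequenced, so an effect of the transcript and an effect of this hairpin cannot be told apart. The study calls the repeats biological. Neither the labels nor the methods say whether the repeats of a group came from separate transductions, or whether a repeat is a pool or a clone, and p-values measure the spread between these libraries.

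Chemokines are small secreted proteins that guide cells carrying the matching receptor. CXCL1, CXCL2, CXCL3, CXCL5 and CXCL8 share the ELR motif, act on the receptors CXCR1 and CXCR2 and draw neutrophils. CCL20 acts on CCR6 of lymphocytes and dendritic cells, whereas CXCL16 and CX3CL1 are made as membrane proteins with a chemokine domain on a mucin stalk, bind CXCR6 and CX3CR1, and are cut free by the proteases ADAM10 and ADAM17. The genes for the ELR chemokines are textbook targets of NF-kB and, for CXCL8, of AP-1, and their mRNAs are short-lived through AU-rich elements bound by proteins such as the one encoded by ZFP36.

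The promoters of the 5 ELR genes are shown because these genes of one chromosome 4 cluster held the same element although their transcript levels differed widely. Each run gives the 150 bases upstream of the RefSeq start in GRCh38.p14, 5′ to 3′ on the strand of the gene, with matches to GGNNTTTCC (an NF-kB element) or TGANTCA (an AP-1 element) in capitals.
CXCL1, plus strand, chr4:73869243-73869392: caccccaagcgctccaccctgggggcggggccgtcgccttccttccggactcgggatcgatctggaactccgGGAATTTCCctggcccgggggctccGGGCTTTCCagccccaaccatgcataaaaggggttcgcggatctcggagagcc
CXCL2, minus strand, chr4:74099196-74099345: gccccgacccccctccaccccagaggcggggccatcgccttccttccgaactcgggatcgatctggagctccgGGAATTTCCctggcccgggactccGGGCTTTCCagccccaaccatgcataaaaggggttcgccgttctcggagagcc
CXCL3, minus strand, chr4:74038690-74038839: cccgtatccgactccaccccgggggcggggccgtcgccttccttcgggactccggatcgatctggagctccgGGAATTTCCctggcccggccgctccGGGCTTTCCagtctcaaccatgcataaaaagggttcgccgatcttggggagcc
CXCL8, plus strand, chr4:73740419-73740568: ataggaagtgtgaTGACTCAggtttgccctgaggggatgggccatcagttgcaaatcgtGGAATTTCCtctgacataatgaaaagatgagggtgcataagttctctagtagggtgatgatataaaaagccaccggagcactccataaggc
CXCL5, minus strand, chr4:73998678-73998827: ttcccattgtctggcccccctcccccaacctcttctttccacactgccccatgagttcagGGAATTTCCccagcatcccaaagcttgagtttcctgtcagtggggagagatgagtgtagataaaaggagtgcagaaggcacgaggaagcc

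Promoter sequence from 250 bases before to 50 bases after the start was at hand for 6 of the 8 genes, CXCL16 and CX3CL1 being the other two, and was searched on both strands. The letters GGNNTTTCC were chosen with the known NF-kB sites of these genes in mind, so their presence here is a description and not a search result. They occurred in 6 of 6 chemokine promoters and in 6.26% of 27305 promoters of the same length. CXCL1, CXCL2 and CXCL3 each held the sites GGAATTTCC and GGGCTTTCC, with the first base 77 or 78 bases and 53 bases upstream of the start. CXCL8 held GGAATTTCC at 91 bases and CXCL5 held it at 90 bases upstream, whereas CCL20 held GGAAAACCC, a match on the other strand, at 79 bases. The AP-1 letters TGANTCA were found in 1 of the 6, CXCL8, at 137 bases upstream, and in 7.76% of all promoters. The E-box CACGTG, the letters that c-Myc and Max bind, was in 0 of the 6 and in 7.43% of all promoters. The Smad element GTCTAGAC was in 0 of the 6 and in 0.201% of all. An absent match says only that these letters are not in this window.

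Before the results, the libraries were compared with their label. The 7 markers listed for basal and mesenchymal breast cells were all detected, at unequal levels. VIM (vimentin) lay between 71.2 and 305 normalized CPM, that is, read counts relative to the TMM-scaled size of the library. MSN lay between 341 and 767, LGALS1 between 216 and 774 and CAV1 between 27.9 and 101. Lower were CD44 at 9.31 to 37.2, AXL at 18.1 to 51.1 and EGFR at 11.0 to 30.7 normalized CPM. Beside them stood epithelial and digestive tract genes, with KRT8 between 4249 and 7408, EPCAM between 236 and 336, ESRP1 between 128 and 188, VIL1 between 220 and 501 and HNF4A between 65.4 and 194 normalized CPM in the 6 libraries. Other genes of the same lists were low or absent: GRHL2 had at most 17 counts and OVOL1 at most 5, KRT20, GPA33, FABP1, APOA1 and ALB at most 6, and CDX1, AFP, TTR and APOB 0 in each library. The cytokine gene IL6 was at 0 counts as well. The marker lists thus gave no single identity, KRT8, EPCAM, ESRP1, VIL1 and HNF4A at these levels go against a mesenchymal breast line, and the libraries are therefore named by their label only. Of leukocyte markers, PTPRC and MS4A1 were at 0 counts in all 6 libraries, and the summed level of the 10 markers was 3.46 to 7.53 normalized CPM in the control and 1.21 to 4.89 in the knockdown.

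Total counts lay between 14999307 and 16501085 per library. In control repeat 2 the deposited FPKM column did not follow the count column of the same library: the gene length implied by the pair of columns matched the other libraries to within 1% for 342 of 21083 genes (1.62%), against 100% in the other libraries. Values are from the count column unless the FPKM column is named, and the chemokine results are given with both further on. Smyca itself, counted as MIR23AHG, was higher in each control than in each knockdown library, with a log2 fold change (control over knockdown throughout) of 1.53 ± 0.26 (SE, the standard error of the fit). Its adjusted p was 0.111 by the quasi-likelihood test of edgeR, adjusted after Benjamini and Hochberg across every gene tested, as for each adjusted p from edgeR below. It met the criteria of the study, defined below, with DESeq2 (adjusted p = 3.71e-05).

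With all 6 libraries, 6 of the 7 chemokines tested had a higher level in the control, as did 53.4% of all genes tested. Their median log2 fold change was 1.28, beside 0.04 over all genes. CXCL1, CXCL2, CXCL3 and CXCL8, the ELR chemokines of the list that were tested, were 2.43 to 3.58 times higher in the mean of the control, CCL20 was 1.68 times higher with a fold change near its standard error, CXCL16 differed by less than its standard error, and CX3CL1 was lower by little more than its standard error. By the study's criteria (adjusted p under 0.05 and a ratio no lower than 1.5, or no higher than 0.66), 0 of the 7 passed with edgeR's quasi-likelihood test, which called 0.0265% of all genes. A ratio of at least 1.5 was reached by 5 of the 7, beside 15.6% of all genes. At an unadjusted p under 0.05, 2 of the 7 were higher in the control, CXCL2 and CXCL3, beside 10.4% of all genes. The same 2 had groups that did not overlap, beside 12.4% of all genes. DESeq2's Wald test called CXCL3, and it called 3.38% of genes higher in the control.

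**Figure D1:**
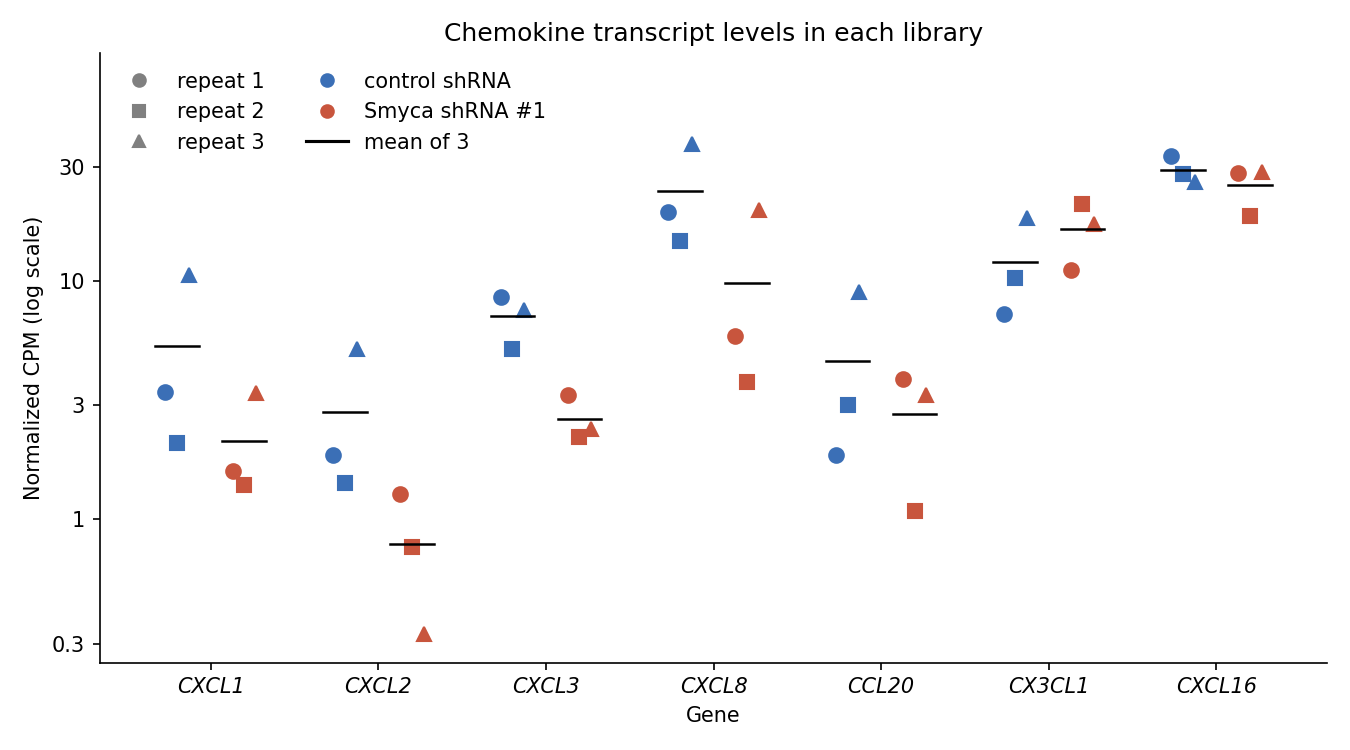
Normalized CPM on a log scale of the 7 chemokine genes with reads enough to be tested, with 1 symbol per library (repeat 1 circle, repeat 2 square, repeat 3 triangle), control shRNA in blue, Smyca shRNA #1 in red and bars at the mean of 3. For CXCL2 and CXCL3 all control symbols lie above all knockdown symbols, and for CXCL1 and CXCL8 the triangles of both groups lie highest in their group.

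CXCL3, a neutrophil attractant on the minus strand of chromosome 4 (ENSG00000163734, 74036589 to 74038807 in GRCh38), gave the smallest error of the ELR genes. Its normalized CPM were 8.52, 5.17 and 7.56 in control repeats 1, 2 and 3 and 3.30, 2.22 and 2.38 in the knockdown repeats. Every control library was above every knockdown library, and within each group the libraries differed by at most 1.65-fold. The means were 7.08 ± 1.72 and 2.63 ± 0.585 (SD, n = 3 each), and the log2 fold change was 1.42 ± 0.31 (SE) with an adjusted p of 0.111 from edgeR. The 95% interval of the ratio ran from 1.64 to 4.39. A two-sided exact permutation test on this gene alone gave p = 0.1, the smallest value that 3 against 3 libraries allow. Without control repeat 3 CXCL3 met the criteria (log2 fold change 1.37, adjusted p = 0.0340 from edgeR, with 6.5% of genes called higher in the control), and over 13 alternatives its log2 fold change stayed between 1.27 and 1.61 while its adjusted p ranged from 0.00378 to 0.440.

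CXCL2 (ENSG00000081041, chromosome 4, 74097040 to 74099196, minus strand), a close relative of CXCL1 that acts on the same receptor, had the largest fold change of the 7 genes and few reads. It had 30, 23 and 81 counts in the control repeats and 20, 12 and 5 in the knockdown repeats, or 1.85, 1.42 and 5.19 against 1.27, 0.760 and 0.330 normalized CPM. The groups did not overlap, but the lowest control library was only slightly above the highest knockdown library, and control repeat 3 was far above the other two. The means were 2.82 ± 2.06 and 0.787 ± 0.470 (SD, n = 3 each), and the log2 fold change was 1.82 ± 0.63 (SE, adjusted p = 0.180 from edgeR). Its ratio had a 95% interval of 1.30 to 9.64, and the exact permutation p was 0.1. Without control repeat 3 the log2 fold change was 1.03. With no filter beyond 1 count, where 1.87% of genes were called higher in the control, CXCL2 and CXCL3 both met the criteria.

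CXCL1 (ENSG00000163739, chromosome 4, 73869393 to 73871308, plus strand), the founding growth-regulated chemokine of this family, was at 3.39, 2.09 and 10.5 normalized CPM in the control repeats, against 1.59, 1.39 and 3.37 in the knockdown. Knockdown repeat 3 reached the level of control repeat 1 and passed control repeat 2, so the groups overlapped. The means of 5.33 ± 4.53 and 2.12 ± 1.09 (SD, n = 3 each) gave a log2 fold change of 1.33 ± 0.62 (SE, adjusted p = 0.287 from edgeR), with a ratio between 0.940 and 6.73 at 95%. The exact permutation p was 0.2. Without control repeat 3, the log2 fold change was 0.37.

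CXCL8 (ENSG00000169429, chromosome 4, 73740519 to 73743716, plus strand) encodes interleukin-8, the main neutrophil attractant of human epithelium, and it took between 46.1% and 76.5% of the summed normalized CPM of the 5 ELR genes in any library. Its levels were 19.4, 14.6 and 37.3 normalized CPM in the control repeats and 5.84, 3.74 and 19.7 in the knockdown repeats. Knockdown repeats 1 and 2 were below all controls, while knockdown repeat 3 was just above control repeat 1 and above control repeat 2. The means were 23.8 ± 11.9 and 9.77 ± 8.70 (SD, n = 3 each), and the log2 fold change was 1.28 ± 0.59 (SE, adjusted p = 0.282 from edgeR). The interval of the ratio was 0.951 to 6.23, and the exact permutation p was 0.3. Single libraries moved this gene in both directions, since its log2 fold change was 0.80 without control repeat 3 and 2.30 without knockdown repeat 3.

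CXCL5 (ENSG00000163735, chromosome 4, 73995642 to 73998677, minus strand), the remaining ELR chemokine of the list, had 1 count in control repeat 2, 1 in knockdown repeat 1 and 0 in the other libraries, and was not tested. A limit of 3 counts corresponds to 0.184 to 0.198 normalized CPM, depending on the library. As an upper limit it holds for libraries with 0 counts and covers counting error only. No limit was set for control repeat 2 and knockdown repeat 1, with 1 count each. CXCL5 was therefore not reliably detectable at this depth, although its promoter held GGAATTTCC at nearly the same distance as CXCL8. Together the 5 ELR genes summed to 33.2, 23.3 and 60.5 normalized CPM in the control repeats and 12.1, 8.11 and 25.8 in the knockdown repeats, and knockdown repeat 3 was above control repeat 2 in this sum. With the FPKM-derived reads, control repeat 2 came to 59.2, above all knockdown repeats.

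**Figure D2:**
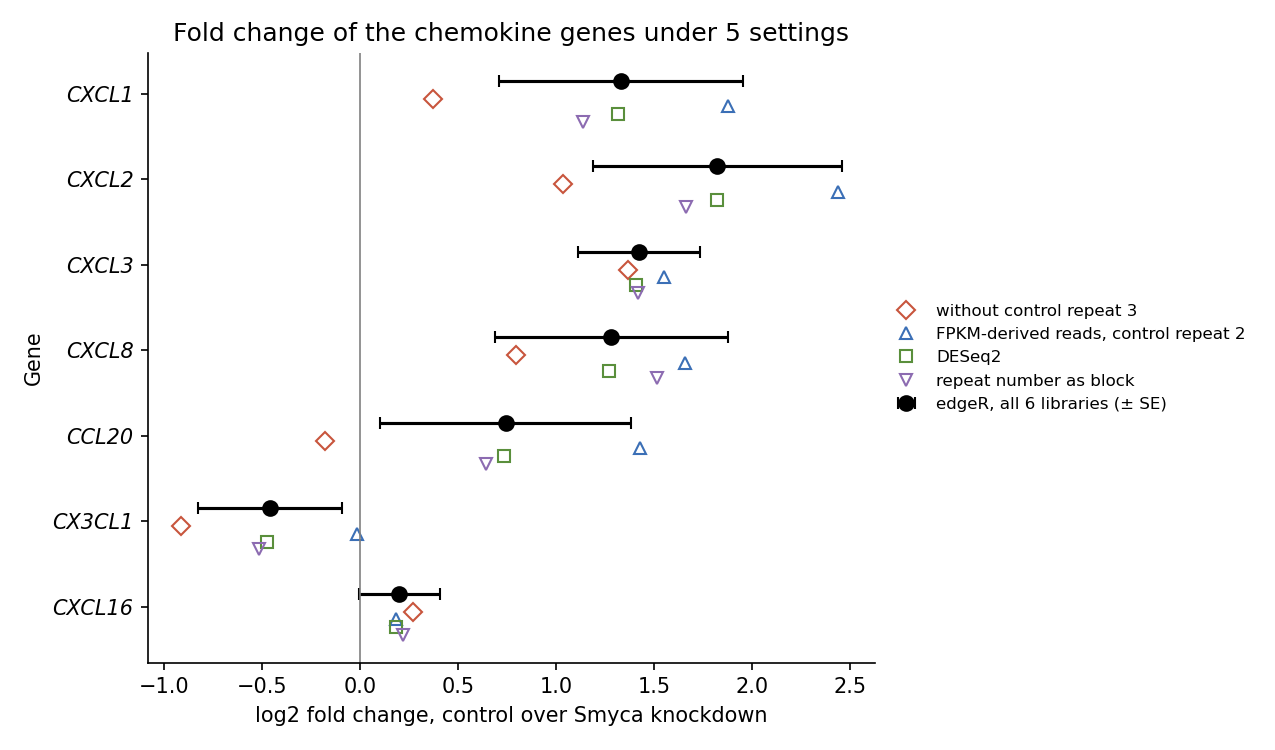
Log2 fold change of each chemokine gene, control over Smyca knockdown, from edgeR with all 6 libraries (filled circle, bar ± 1 standard error) and under 4 other settings (open symbols, no error drawn). CXCL3 moved little, between 1.37 and 1.55 under the settings drawn, whereas CXCL1 fell to 0.37 and CCL20 to -0.18 without control repeat 3.

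CCL20 (ENSG00000115009, chromosome 2, 227805739 to 227817564, plus strand), the ligand of CCR6, was at 1.85, 3.02 and 8.97 normalized CPM in the control repeats and 3.87, 1.08 and 3.30 in the knockdown repeats. The groups overlapped, with control repeat 1 below knockdown repeats 1 and 3. The means were 4.61 ± 3.82 and 2.75 ± 1.48 (SD, n = 3 each), and the log2 fold change of 0.74 was close to its standard error of 0.64 (adjusted p = 0.554 from edgeR). Without control repeat 3 it turned to -0.18, so no direction was settled for this gene.

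The 2 membrane-bound chemokines did not share the direction of the ELR genes beyond their error. CXCL16 (ENSG00000161921, chromosome 17, 4733533 to 4739928, minus strand), which also serves as a scavenger receptor, was at 33.1, 27.9 and 25.9 normalized CPM in the control repeats and 28.4, 18.7 and 28.7 in the knockdown repeats. Its groups overlapped and its means of 29.0 ± 3.73 and 25.2 ± 5.68 (SD, n = 3 each) gave a log2 fold change of 0.20 ± 0.21 (SE, adjusted p = 0.624 from edgeR). The ratio was between 0.828 and 1.59 at 95%. This interval overlapped that of CXCL2 (1.30 to 9.64) and lay below that of CXCL3 (1.64 to 4.39). A difference in ratio between the genes was not tested. CX3CL1, or fractalkine (ENSG00000006210, chromosome 16, 57372477 to 57385044, plus strand), was the only one of the 7 genes with a lower mean in the control. It was at 7.22, 10.3 and 18.4 normalized CPM in the control repeats and 11.0, 21.0 and 17.2 in the knockdown repeats, with overlapping groups. The means were 11.96 ± 5.77 and 16.4 ± 5.04 (SD, n = 3 each), and the log2 fold change was -0.46 ± 0.37 (SE, adjusted p = 0.523 from edgeR) and a ratio between 0.406 and 1.30. Its log2 fold change was -0.91 without control repeat 3 and -0.02 with the FPKM-derived reads of control repeat 2 (described further on).

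Levels of different genes were compared per kilobase of the gene length used for the FPKM values. In the control, the mean level in CPM per kilobase was 23.7 ± 11.9 (SD, n = 3) for CXCL8 and 22.0 ± 2.83 for CXCL16, followed by CXCL3 at 6.85 ± 1.67, CXCL1 at 6.37 ± 5.41, CCL20 at 6.16 ± 5.10, CX3CL1 at 3.68 ± 1.78 and CXCL2 at 3.58 ± 2.62. CXCL16 stood clear of CXCL3 in all 3 control libraries, and CXCL2 clear of CXCL5. Each other neighbouring pair overlapped in range, and CXCL8 was above CXCL16 in only 1 of the 3. With the FPKM-derived reads of control repeat 2, CXCL8 was above CXCL16 in 2 of the 3, at 30.8 ± 10.2 against 21.8 ± 2.64, followed by CCL20, CXCL1, CXCL3, CXCL2 and CX3CL1. In the knockdown, CXCL16 came first at 19.2 ± 4.31 CPM per kilobase, above CXCL8 in 3 of 3 libraries although their ranges overlapped. CXCL8 followed at 9.76 ± 8.69, then CX3CL1 at 5.06 ± 1.55, CCL20 at 3.68 ± 1.97, CXCL3 at 2.55 ± 0.567, CXCL1 at 2.53 ± 1.30 and CXCL2 at 0.998 ± 0.597. Only CXCL1 with CXCL2, and CXCL2 with CXCL5, had ranges that did not overlap among the neighbours of this order. Such levels cannot tell fewer cells with a transcript from less transcript per cell.

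Several chemokine genes had their extremes in the same libraries. By the count columns, control repeat 3 was the highest of the 6 libraries in 4 of the 7 genes tested (CXCL1, CXCL2, CXCL8 and CCL20), and it was the highest in 22.1% of all genes tested. With the FPKM-derived reads of control repeat 2 it was the highest in 2 of the 7, CXCL1 and CXCL8, and control repeat 2 in 3, CXCL2, CCL20 and CX3CL1, beside 14.04% and 14.58% of all genes. Knockdown repeat 2 was the lowest in 5 of the 7 with either column, and in 17.7% of all genes tested by the counts. Without control repeat 3, the median log2 fold change of the 7 genes was 0.37.

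The 2 columns of control repeat 2 gave different accounts of the same genes. Its count column held 34 reads for CXCL1, 23 for CXCL2, 237 for CXCL8, 49 for CCL20 and 167 for CX3CL1, whereas its FPKM column corresponded to 166, 103, 626, 198 and 403 whole reads. CXCL3 differed less, with 84 counts against 127 reads, and CXCL16 hardly, with 453 against 475. Scaled to library size, the FPKM-derived reads came to 9.60 normalized CPM for CXCL1, 5.96 for CXCL2, 36.2 for CXCL8, 11.5 for CCL20 and 23.3 for CX3CL1. Each of these lay nearer to control repeat 3 than to control repeat 1. Across genes, which are not independent replicates, the log values of these reads had a correlation of 0.990 with control repeat 3 and of 0.982 with the counts of control repeat 2 itself. Which of the columns belongs to the library is not settled. With them, the log2 fold changes were 1.88 for CXCL1, 2.44 for CXCL2, 1.55 for CXCL3, 1.66 for CXCL8 and 1.43 for CCL20, and 0 of the 7 genes met the criteria with edgeR.

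**Figure D3:**
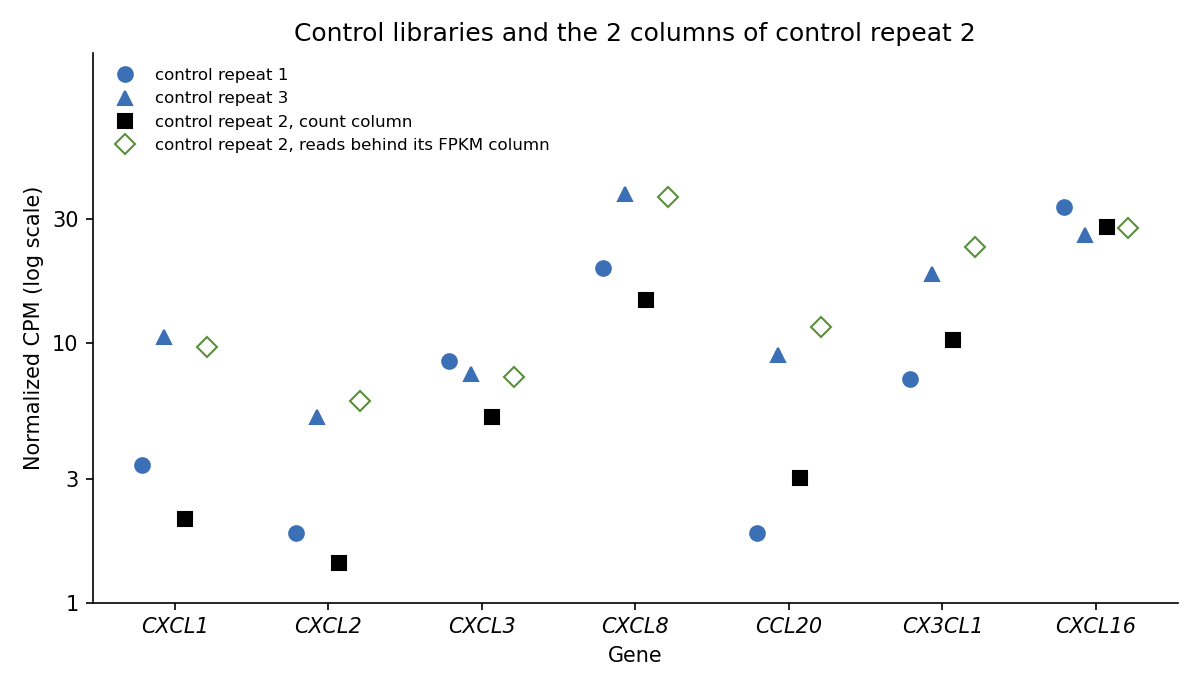
Normalized CPM on a log scale of each chemokine gene in control repeats 1 and 3 and in control repeat 2 by its count column (black square) and by the reads that its FPKM column implies (open diamond). For CXCL1 the square is at 2.09 and the diamond at 9.60, near the 10.5 of control repeat 3, while for CXCL16 square and diamond nearly coincide.

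The ELR genes lie together on chromosome 4, within 358678 bases from CXCL8 to CXCL2. Of 34 annotated genes in this span and 500 kb to either side, 12 were tested, and 13 had 0 counts in every library. Among the 8 tested genes that are not in the chemokine list, 4 were higher and 4 lower in the control, and 0 met the criteria with edgeR, although 3 had an unadjusted p under 0.05 and DESeq2 called 1, AREG. Of all genes, 10.4% were higher and 8.74% lower in the control at that p, and DESeq2 called 5.64%. CXCL6, an ELR chemokine between CXCL8 and CXCL1, had a log2 fold change of -0.31 ± 0.32 (SE) at 1.48 to 2.51 normalized CPM. The platelet chemokines PF4 and PPBP, inside the same span, had at most 1 count. Outside it, AREG, the growth factor amphiregulin, was at 230, 146 and 126 normalized CPM in the control repeats and 109, 61.4 and 68.3 in the knockdown repeats, with no overlap (log2 fold change 1.07 ± 0.29 SE, adjusted p = 0.128 from edgeR). EREG, its neighbour epiregulin, had a log2 fold change of 0.36 ± 0.20 (SE), and MTHFD2L, next to CXCL2, one of 0.09 ± 0.33 (SE).

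**Figure D4:**
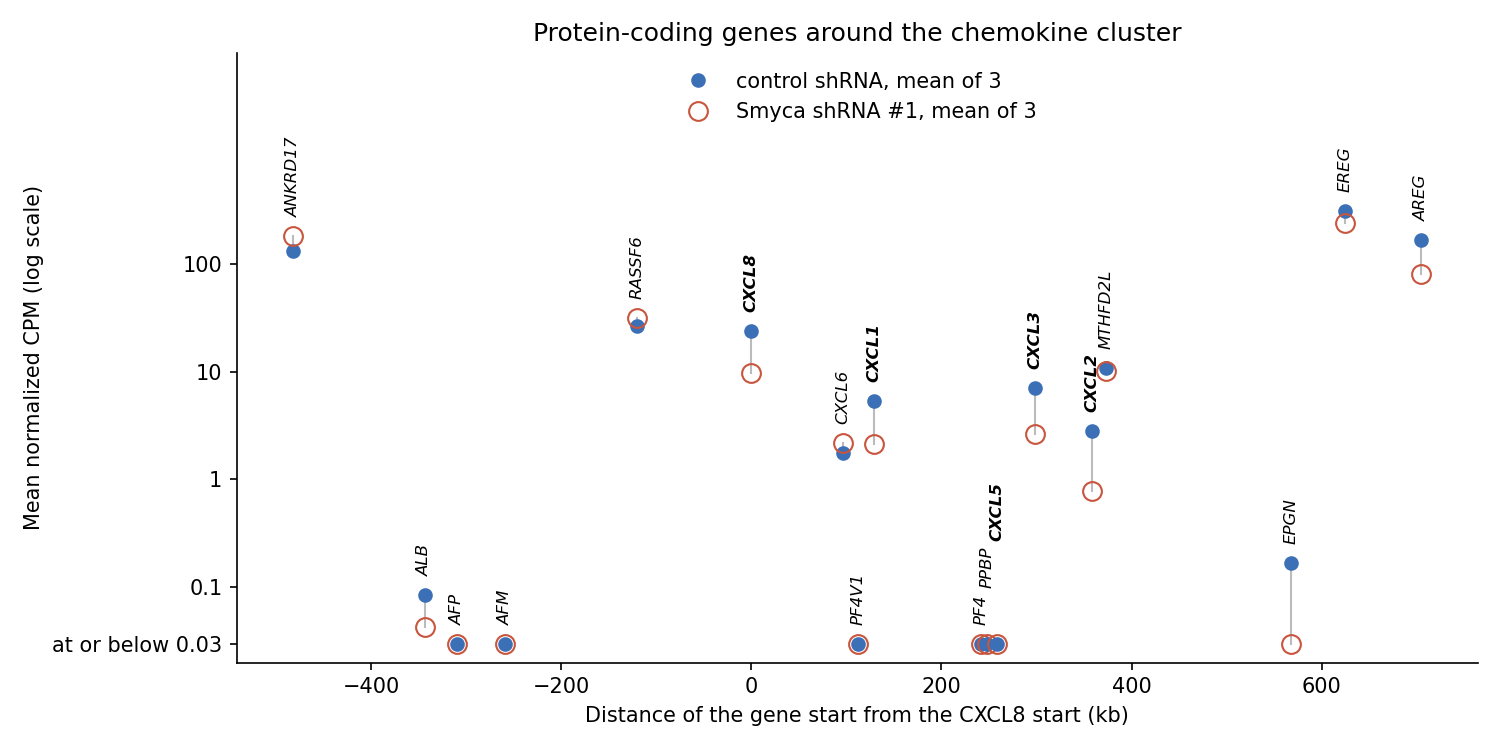
Mean normalized CPM on a log scale of the 18 protein-coding genes within 500 kb of the chemokine cluster, placed by the distance of their start from that of CXCL8 in kb, with filled blue circles for the control and open red circles for the Smyca knockdown (means of 3, no error drawn, values under 0.03 set on the lowest line). CXCL8, CXCL1, CXCL3 and CXCL2 have the blue circle above the red one, CXCL6 between them does not, and CXCL5, PF4 and PPBP are on the lowest line.

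The reads of CXCL1, CXCL2 and CXCL3 could in part have been shared. Of the stretches of 30 bases in their reference transcripts, 15.7%, 22.7% and 9.94% also occurred in transcripts of other genes, chiefly in each other. None of their stretches of 100 bases did, and the reads were 150 bp paired ends. The values of these 3 genes are uncertain to that extent. Over the part after the coding sequence of their reference transcripts, CXCL2 held 5 copies of the AU-rich nonamer TTATTTATT and CXCL1 held 3, numbers reached by 0.213% and 0.730% of 18780 transcripts. CXCL3, CXCL8 and CX3CL1 held 1 each, where 8.60% of transcripts held 1 or more, and CXCL5, CCL20 and CXCL16 held 0.

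The receptors of these ligands were near or at 0. CXCR2, CCR6 and ACKR1 had 0 counts in all libraries, CXCR1 had at most 1, CX3CR1 at most 2 and CXCR6 at most 14, and 1 of the 22 receptor genes listed was tested. Of the 35 other chemokine genes listed, 4 were tested, 0 met the criteria with edgeR or DESeq2, 0 had an unadjusted p under 0.05 and 16 had 0 counts in all libraries. CCL28, a mucosal chemokine, was at 9.90 to 19.0 normalized CPM with a log2 fold change of 0.10 ± 0.26 (SE), while CXCL12 was at 0 and CCL2 had at most 1 count. ADAM10 and ADAM17, which shed CXCL16 and CX3CL1, had log2 fold changes of -0.25 ± 0.15 and 0.20 ± 0.35 (SE). Of the 8 genes listed for shedding and presentation of chemokines, 6 were tested and 0 met the criteria with edgeR. At an unadjusted p under 0.05, 1 was higher in the control, RHBDF1 (1.49 ± 0.42 SE on the log2 scale), and 1 lower, SDC1 (-0.45 ± 0.16 SE), beside 10.4% and 8.74% of all genes. Both were picked out after their values were seen. DESeq2 called RHBDF1, beside 5.64% of all genes. The groups did not overlap for 0 genes higher and 2 lower in the control, ADAM10 and SDC1, beside 12.4% and 12.5% of all genes.

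Of the upstream genes, the 22 listed for NF-kB signalling were all tested. In the control 14 were higher and 8 lower, with a median log2 fold change of 0.23, and 0 met the criteria with edgeR, although 6 were higher and 3 lower at an unadjusted p under 0.05, beside 10.4% and 8.74% of all genes, and 5 were called by DESeq2, beside 5.64% of all genes. The groups did not overlap for 6 of the 22 genes higher and 5 lower in the control, beside 12.4% and 12.5% of all genes. RELA, the activating subunit, had a log2 fold change of 0.23 ± 0.15 (SE), and NFKB1 one of -0.67 ± 0.20 (SE, adjusted p = 0.142 from edgeR). NFKBIA, the inhibitor that NF-kB itself induces, was at 22.6, 22.2 and 56.9 normalized CPM in the control repeats and 26.5 to 31.9 in the knockdown repeats. By the count columns it was high in control repeat 3 alone, but the FPKM column of control repeat 2 put it at 63.4 there, with a log2 fold change of 0.68 in place of 0.20. NFKBIZ, a nuclear cofactor for a subset of NF-kB targets, was at 6.36, 6.58 and 21.3 in the control repeats and 3.29 to 3.81 in the knockdown repeats, with no overlap (log2 fold change 1.66 ± 0.48 SE, adjusted p = 0.140 from edgeR). Its log2 fold change was 0.84 without control repeat 3, and 2.19 with the FPKM-derived reads, which put control repeat 2 at 22.0 normalized CPM. TNFAIP3, another feedback inhibitor, had no overlap either, at 15.4 to 28.3 against 7.35 to 12.3 normalized CPM (log2 fold change 1.11 ± 0.29 SE, adjusted p = 0.126 from edgeR). Transcripts of the cytokines that induce these genes were barely present, with IL1B and TNF at no more than 3 and IL1A at no more than 6 in any library. Of the 14 genes listed for such inducers and their receptors, 6 could be tested. Each of the 6 had its higher mean in the control (median log2 fold change 0.24), as did 53.4% of all genes, while 0 met the criteria with edgeR. An unadjusted p under 0.05 was found for 2 of them, beside 10.4% of all genes higher in the control at that p. These were TLR3, a receptor for double-stranded RNA (1.35 ± 0.36 SE), and IL1RAP, a subunit of the interleukin-1 receptor (0.92 ± 0.33 SE). DESeq2 called TLR3, beside 5.64% of all genes. TLR3 and IL1RAP were named after their values were seen. Of the NF-kB list, DESeq2 called NFKBIZ, TNFAIP3 and BCL3 higher and NFKB1 and TRAF2 lower in the control. BCL3 had a log2 fold change of 1.36 ± 0.39 (SE), and TRAF2, an adaptor of TNF receptors with the smallest unadjusted p of the list, one of -0.65 ± 0.14 (SE, adjusted p = 0.111 from edgeR), both named after their values were seen.

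Of the 8 genes listed for decay of AU-rich mRNAs, 1 met the criteria with edgeR, ZFP36, with 4 higher and 4 lower in the control. At an unadjusted p under 0.05, 3 were higher and 3 lower, beside 10.4% and 8.74% of all genes, and DESeq2 called 3, beside 5.64%. The groups did not overlap for 3 genes higher and 3 lower in the control, beside 12.4% and 12.5% of all genes. ZFP36, which encodes tristetraprolin, was at 74.0, 47.3 and 68.1 normalized CPM in the control repeats and 14.6, 12.99 and 11.3 in the knockdown repeats. Its log2 fold change of 2.28 ± 0.21 (SE, adjusted p = 0.0312 from edgeR) had the same direction as those of CXCL1, CXCL2, CXCL3 and CXCL8. ZFP36L1, its relative, had one of 1.45 ± 0.28 (SE, adjusted p = 0.111 from edgeR), and ZC3H12A, the RNase regnase-1, one of 0.65 ± 0.23 (SE). The 3 lower genes at that p, picked out after their values were seen, were KHSRP at -0.59 ± 0.14, ELAVL1 at -0.43 ± 0.14 and HNRNPD at -0.44 ± 0.15 (log2 fold change ± SE), with adjusted p of 0.122, 0.168 and 0.174 from edgeR. They encode proteins that bind AU-rich mRNAs, of which ELAVL1 is known for stabilizing them. All 8 AP-1 subunit genes listed were higher in the control, with a median of 1.36. Of these, 7 had an unadjusted p under 0.05, 6 had groups that did not overlap and DESeq2 called 6, beside 10.4%, 12.4% and 5.64% of all genes. With edgeR 1 met the criteria, JUN (log2 fold change 1.91 ± 0.20 SE, adjusted p = 0.0312 from edgeR). FOS was at 49.5, 47.1 and 122 normalized CPM in the control repeats and 5.64 to 8.32 in the knockdown repeats, and like CXCL1 and CXCL8 it was highest in control repeat 3. By the FPKM column of control repeat 2 it was at 122 there too, and FOS then met the criteria (log2 fold change 3.72, adjusted p = 0.0349 from edgeR). The calls of ZFP36 and JUN were lost without control repeat 1 and without each of the 3 knockdown repeats, with adjusted p between 0.0702 and 0.297 for ZFP36 and between 0.0726 and 0.344 for JUN from edgeR. Their log2 fold changes under those settings were 2.15 to 2.37 and 1.88 to 1.94. Both calls were also lost with a term for the repeat number, at an adjusted p of 0.131 each from edgeR and log2 fold changes of 2.27 and 1.88.

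Other marker lists were compared as well, and 0 genes of the hypoxia, basal and mesenchymal, gut and liver and epithelial lists met the criteria with edgeR. The 12 hypoxia genes listed were all higher in the control, with sums of 5020, 2684 and 1548 normalized CPM in the control repeats and 1487 to 1969 in the knockdown repeats, so that control repeat 3, the highest for CXCL1 and CXCL8, was the lowest control here. Their median log2 fold change was 1.52, 8 had an unadjusted p under 0.05, 5 had groups that did not overlap and DESeq2 called 6, beside 10.4%, 12.4% and 5.64% of all genes. Most of the sum was SLC2A1, the glucose transporter GLUT1, singled out after its values were seen, at 3023, 1630 and 1102 normalized CPM in the control repeats and 1102 to 1610 in the knockdown repeats. All 7 basal and mesenchymal breast markers were higher in the control, at sums of 900.4 to 2066 against 859.6 to 1303, where 5 had an unadjusted p under 0.05 and 2 were called by DESeq2, beside 10.4% and 5.64% of all genes. Only 1 of these 7 had groups that did not overlap, beside 12.4% of all genes. Of the 18 gut and liver markers 9 were tested, with 3 higher and 6 lower in the control, and the 18 summed to 462 to 774 in the control and 759 to 991 in the knockdown. Of 14 epithelial markers 13 were tested, with 9 higher and 4 lower in the control and sums of 7401 to 8788 against 7947 to 10709. In the gut and liver list 1 gene was higher and 2 lower at an unadjusted p under 0.05, in the epithelial list 2 were higher and 1 lower, beside 10.4% and 8.74% of all genes, and DESeq2 called 1 gene in each, beside 5.64%. Of 8 luminal breast markers 5 were tested, all higher in the control (median log2 fold change 0.66). Of 8 endothelial and fibroblast markers 4 were tested, also all higher (median 0.59), beside 53.4% of all genes. In these lists 0 genes met the criteria with edgeR. At an unadjusted p under 0.05, 1 luminal gene and 0 of the other list were higher. DESeq2 called 1 luminal gene, AGR2, and 0 of the other list. The part of these differences in the chemokine levels was not tested.

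For each chemokine, the closest profiles were sought among 9540 genes with a mean of at least 10 normalized CPM, by the root mean square difference of log2(CPM + 1) values over the 6 libraries, each centred on its mean. CXCL3 was nearest to IER3, an immediate early gene, at a difference of 0.10, then to AGR2 and TMEM198B. CXCL2 was nearest to CCNL1 at 0.14, then to RRN3P1 and GOLGA8B. The profile of CXCL1 was nearest to CAPN8 at 0.21, then to HES1 and ASAP1. For CXCL8 no profile was as close, the nearest being SGSH at 0.37, followed by KLF6 and KLF9. CCL20 had DNASE2 at 0.28 as its nearest gene, CX3CL1 had FABP5 at 0.11 and CXCL16 had YIPF4 at 0.05. The difference also depends on a gene's own spread over the libraries, an SD of the log2 values from 0.24 for CXCL16 to 1.02 for CXCL8. The differences of different chemokines are therefore not on 1 scale. With 6 libraries and 9540 genes, close profiles arise readily, and these names are a description only.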

How the data were processed

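RNA-seq of 3 control shRNA and 3 Smyca shRNA #1 libraries was analysed, grouped by the sample titles. After rRNA removal, strand-specific library preparation and sequencing of 150 bp paired ends, the authors aligned reads with TopHat2 2.0.12 to hg38 and deposited raw HTSeq counts per Ensembl gene. The deposited FPKM values accompany them; they served for gene lengths and, in control repeat 2, for recovering whole reads. The annotation release and strand setting of the counting are not given in the sources used here. Symbols and positions came from GENCODE release 44 and promoters from RefSeq (GRCh38.p14).

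Counts were tested in R 4.3.3 with edgeR 4.0.16 (TMM, filterByExpr, quasi-likelihood test, ratio of control over knockdown) and Benjamini-Hochberg adjustment over 15075 genes. edgeR took the place of the DESeq of the study, whose ratio and adjusted p criteria were kept. The standard error is the log2 fold change divided by the root of F. The biological coefficient of variation was 25.2%. Alternatives were RLE factors, total counts, a filter of 1 count in all, a filter of 10 counts in every library, DESeq2 1.42.0, the repeat number as a block, each library left out, FPKM-derived reads for control repeat 2, and no ratio criterion. The code was tested on simulated data. Single genes were also compared by two-sided exact permutation tests. The chemokines, the gene lists and the tests were chosen with earlier results of these data known. The genes named are the chemokines, listed ligands, receptors, sheddases, NF-kB, cytokine, mRNA decay and AP-1 genes, Smyca, marker genes, neighbours on chromosome 4 and, for each chemokine tested, the 3 closest profiles among genes with a mean of at least 10 normalized CPM. The promoter and AU-rich motifs were chosen after the files had been seen.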

Additional observations from a re-analysis of the deposited data

How the results depend on the processing

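Over 13 alternatives, CXCL1, CXCL2, CXCL3, CXCL8 and CXCL16 stayed higher and CX3CL1 lower in the control; CXCL2 could not be fitted with at least 10 counts in every library. The number of chemokines meeting the criteria was 0 with all libraries and edgeR, 2 with no filter beyond 1 count, 1 with DESeq2, and 0 to 1 with each library left out. Over all genes it was 4, and became 8 with total counts, 916 with no filter beyond 1 count, 850 with DESeq2, 10 with FPKM-derived reads for control repeat 2, and 0 to 1628 with each library left out, the highest without control repeat 3. With each library left out, the median log2 fold change of the chemokines ranged from 0.37, without control repeat 3, to 1.53. The same ranges were -0.18 to 1.12 for CCL20, -0.12 to 0.56 for ADAM17, -0.13 to 0.32 for CCL28 and -0.41 to 0.42 for NFKBIA, each of which changed sign. Beyond the smaller number of libraries or of genes tested, the cause was not tested. By the count columns and across all genes tested, repeats with the same number deviated together with correlations of 0.061, 0.084 and -0.014. Whether single genes were paired by repeat number was not tested. Repeat 3 was the highest of its group in both groups for CXCL1 and CXCL8. With the repeat number fitted as a block, the chemokines had a median of 1.14 with 0 meeting the criteria, and 0 genes met them in all. Counts of 5 to 81 per library limit CXCL2, and depth limits what can be said of CXCL5, with at most 1.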

Other observations

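Outside the genes tested, 3 interferon-inducible chemokines with too few reads for the filter were highest in control repeat 3. CXCL10 had 0, 0 and 1.73 normalized CPM in the control repeats and 0.190, 0.127 and 0.594 in the knockdown repeats. CCL5 was at 0, 0.0615 and 3.78 in the control repeats and 0.571, 0.443 and 2.18 in the knockdown repeats. CXCL11, named after its values were seen, was at 0, 0 and 1.22 in the control repeats and 0.127, 0.317 and 0.528 in the knockdown repeats. For all 3 genes, control repeat 3 was above every knockdown repeat and control repeats 1 and 2 were below every one, so the control libraries lay on both sides of the knockdown by the count columns. By the FPKM column of control repeat 2, this library was at 1.68 for CXCL10, 3.70 for CCL5 and 0.752 for CXCL11, above every knockdown repeat. CXCR3, the receptor of CXCL10 and CXCL11 and also named after its values were seen, was at 1.78 and 1.204 normalized CPM in knockdown repeats 1 and 2 and at no more than 0.0617 in the other libraries.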
